A study of Mus musculus with 80 samples.

Results

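Translating ribosome affinity purification (TRAP) was carried out on microglia that had been isolated from the mouse brain by 4 sort methods, and on brain tissue that was homogenized without any dissociation. The pool of the 4 sort methods, named Sort-TRAP here, held 16 libraries and was compared with the 4 Tissue-TRAP libraries over all genes, so that 20 of the 80 libraries of the series entered the comparison. The sorted libraries were chosen by the sort method in their labels. They comprised 5 libraries sorted with the Tyto, 4 with the FACSAria, 4 with the autoMACS, and 3 with the autoMACS followed by the Tyto, and each method carried the same weight in the pooled contrast. The comparison asks what the translatome of isolated microglia carries that the microglial translatome pulled directly from tissue does not.

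All groups shared the genotype Cx3cr1(Jung)-cre/Ert2+;NuTRAP+. In these mice tamoxifen activates a Cre recombinase driven by the *Cx3cr1* locus, which tags ribosomes with eGFP, and an antibody to eGFP then pulls down the tagged ribosomes with their mRNA. *Cx3cr1* is active in microglia and also in the macrophages of the meninges and perivascular spaces, so the tag is not restricted to microglia. The mice received tamoxifen at about 3 months of age (100 mg/kg body weight per day) and brains were collected later in adulthood. For Tissue-TRAP 1 hemisphere was minced and homogenized on ice. For Sort-TRAP 1 hemisphere was dissociated with enzymes at warm temperature and by mechanical force, and cells were then taken with CD11b magnetic beads (autoMACS), by cartridge-based sorting of CD11b+CD45+eGFP+ cells (Tyto), by beads followed by the cartridge (autoMACS to Tyto), or by cytometer-based sorting of the same gate (FACSAria). Cell-TRAP, used below as a reference, was the pull-down from the dissociated but unsorted cell suspension (4 libraries). The 16 sorted libraries came from 10 mice, of which 6 gave more than 1 sorted library, and the tissue libraries came from other mice, which also gave the Cell-TRAP libraries. No library pooled animals. The p-values therefore measure the spread between these libraries, part of which is within mice.

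Microglia are the resident macrophages of the brain parenchyma. At rest they carry purinergic receptors, the fractalkine receptor, complement, and lysosomal proteases, and their survival depends on signaling through CSF1R. When cells are disturbed, immediate-early genes such as *Fos*, *Jun*, *Egr1*, and *Zfp36* are transcribed within minutes, ahead of NF-kB targets that encode cytokines and chemokines. Enzymatic dissociation at warm temperature is a known trigger of this program in microglia. TRAP captures mRNA on tagged ribosomes only, although a pull-down also carries over some untagged mRNA.

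Depth, given as the sum of expected counts over the listed genes, was 11795698 to 20168116 in Sort-TRAP, 12435687 to 16185756 in Tissue-TRAP, and 12214821 to 17220508 in Cell-TRAP. Levels below are CPM, counts scaled to the library size corrected with TMM, which compare libraries for a gene but not genes with each other. A gene was called when the edgeR quasi-likelihood test gave a Benjamini-Hochberg adjusted p (FDR) under 0.1 over all genes tested and the fold change was above 2. Of 15919 genes listed 14953 were tested. The summed level of 30 homeostatic microglial genes was 13160–15870 CPM in Tissue-TRAP, 69230–74770 in Cell-TRAP, and 82430–96640 in Sort-TRAP. In these bulk libraries fewer cells of a type and less RNA per cell cannot be told apart.

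Sort-TRAP differed from Tissue-TRAP across most of the translatome. Of 14953 genes tested 3873 were called higher (25.9%) and 5520 lower (36.9%) in Sort-TRAP. Genes of resting microglia, of the immediate-early response, and of cytokine and chemokine signaling were among the higher ones, and genes of neurons, astrocytes, and oligodendrocytes among the lower ones. The lower side reached further: 3650 genes were called lower by more than 3 on the log2 scale and 484 were called higher by that much. The sorted and the tissue libraries did not overlap in CPM for 3563 of the genes called higher and 5205 of those called lower. In 1112 of the genes called lower every sorted library held 3 counts or fewer, and in 92 every sorted library was at 0.

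**Figure D1:**
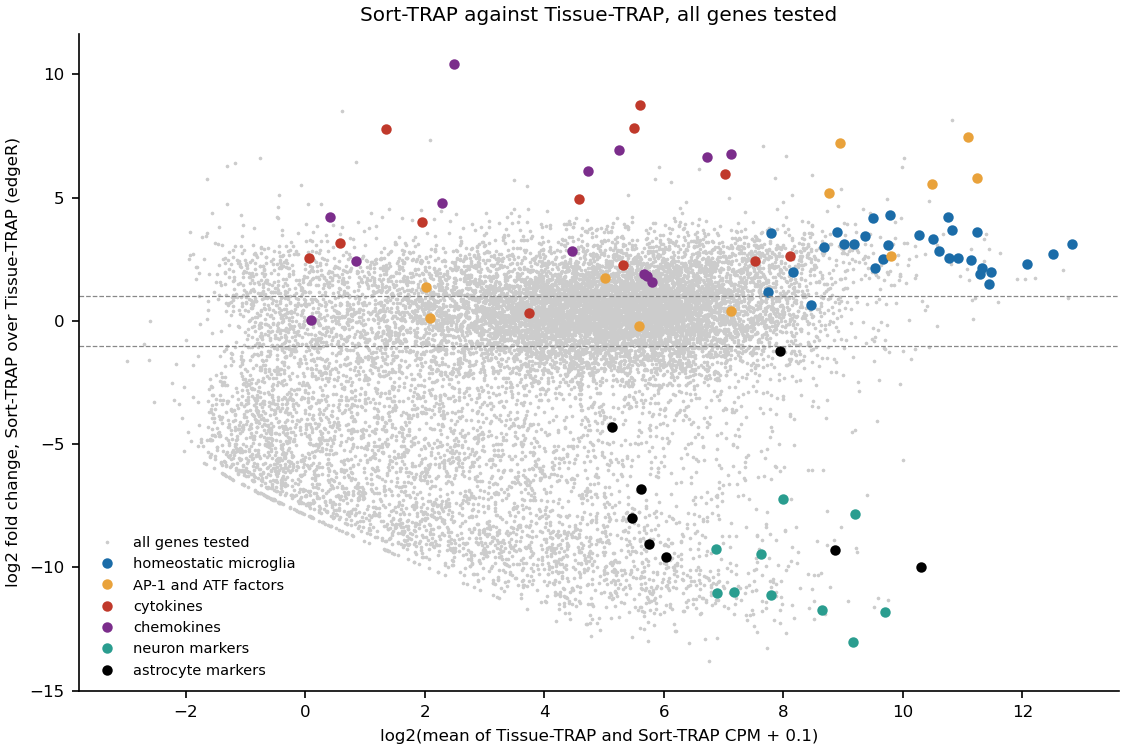
Log2 fold change of Sort-TRAP over Tissue-TRAP (y axis) against the log2 mean level in CPM (x axis) for the 14953 genes tested, with members of 6 lists in color and dashed lines at a fold change of 2. Homeostatic microglial genes sit in a band with a median of 2.90, several cytokines and chemokines lie above it, and neuron markers lie far below the line with a median of -11.0; log2 values of genes without any count in a group depend on the prior count of the model.

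All 14953 genes had a median log2 change of -0.139 with TMM scaling and -0.485 with the size factors of DESeq2, so every change is given relative to a center that moved with the scaling. With those size factors 32.4% of the called genes were higher in Sort-TRAP, against 41.2% with TMM. The separate sorts gave close counts against the same 4 tissue libraries, with 9458 genes called for Tyto, 9422 for FACSAria, 9126 for autoMACS, and 9422 for autoMACS to Tyto. Of the genes called in the pooled contrast 8402 passed a fold change of 2 in the same direction in each sort.

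Homeostatic microglial genes were higher in Sort-TRAP as a group. Of 30 listed genes 29 rose and none fell, beside the 25.9% of all genes tested that were called higher, and the median log2 fold change was 2.90 beside -0.139 for all genes. *Cx3cr1*, the fractalkine receptor that also drives the Cre, was at 336, 374, 387, and 362 CPM in the tissue libraries (mice 946, 947, 948, and 949, the order used throughout) and at 3696–4966 (median 4546) in the sorted libraries. *P2ry12*, the purinergic receptor that guides microglial processes toward ATP, went from 166, 180, 185, and 178 to 2812–3666 (median 3349). All sorted libraries lay above all tissue libraries for both genes, with log2 fold changes of 3.61 ± 0.07 (SE, FDR = 1.18e-23) and 4.21 ± 0.08 (FDR = 2.61e-24).

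The size of the rise varied between these genes. *P2ry13*, another purinergic receptor, rose most (4.28 ± 0.12), and *Csf1r*, the receptor microglia need for survival, rose by 3.10 ± 0.07. *Tmem119*, a microglial membrane protein, rose by 2.56 ± 0.07 and *Ctss*, the protease cathepsin S, by 2.30 ± 0.06. The transcription factors *Sall1*, *Irf8*, and *Sfpi1* (PU.1) rose by 3.10, 2.98, and 1.99. The complement genes *C1qa*, *C1qb*, and *C1qc* stood at 1.97, 1.51, and 1.90. *Tyrobp*, the adaptor of TREM2, was the only gene of the list that did not pass the fold limit, with 250.3–318 CPM in tissue, 354–602 (median 402) in sorted cells, and a log2 fold change of 0.62 ± 0.07. *Itgam*, which rose by 3.67, encodes CD11b and was part of every sort.

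**Figure D2:**
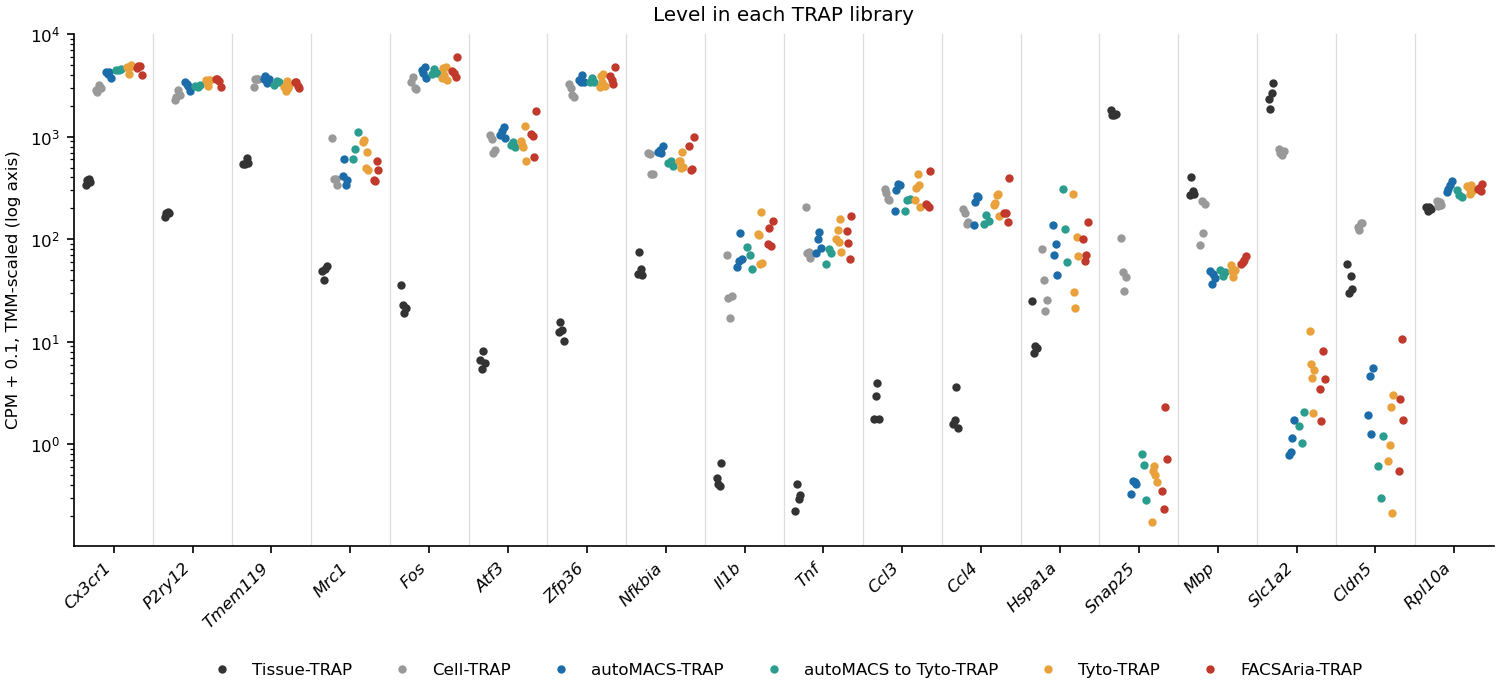
Level of 18 genes in each TRAP library, as CPM + 0.1 on a log axis, with 1 point per library and 1 color per group. The 16 sorted libraries stand above the tissue libraries for Cx3cr1, P2ry12, and Tmem119 and far above them for Fos, Zfp36, Il1b, and Tnf, whereas they stand below them for Snap25, Slc1a2, and Cldn5.

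Most published microglial markers used in the study rose. Their list overlaps the homeostatic list, outside which 257 genes were left, and it also holds cytokine and chemokine genes. Of 282 tested genes 272 rose and none fell, beside 25.9% and 36.9% of all genes, and the median log2 fold change was 2.91. The 6 with the lowest change relative to the homeostatic genes were *Gngt2*, *Lst1*, *Pf4*, *Cbr2*, *Rnf19b*, and *Gmfg*, with log2 fold changes over tissue from 0.11 to 0.89. *Gngt2*, a G protein gamma subunit, was at 32.8–43.5 CPM in tissue and at 30.4–75.1 (median 39.4) in sorted cells, so its groups overlapped. *Pf4* and *Cbr2* are better known from macrophages of the brain borders.

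Genes of AP-1 and ATF transcription factors, part of the immediate-early response, mostly rose. *Fos*, a subunit of the AP-1 factor, was at 35.3, 22.8, 18.8, and 21.4 CPM in the tissue libraries and at 3571–5973 (median 4174) in the sorted libraries, a log2 fold change of 7.46 ± 0.19 (FDR = 8.23e-22). The FACSAria-TRAP library of mouse 992 was the highest. *Atf3*, a stress-induced repressor of the ATF family, rose by 7.21 ± 0.28, from 6.51, 5.34, 8.0, and 6.14 to 583–1755 (median 937). *Jun* and *Junb*, the partners of FOS in AP-1, rose by 5.80 ± 0.15 and 5.54 ± 0.16. Of 11 AP-1 and ATF genes tested 8 rose and none fell, beside 25.9% and 36.9% of all genes, and the median was 2.64. The exceptions were *Fosl2* (-0.21 ± 0.15), *Atf4*, the effector of the integrated stress response (0.40 ± 0.10), and *Maff* (0.11 ± 0.30), whose sorted and tissue libraries overlapped.

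The Egr and Nr4a factors, which neurons also use after activity, held 3 genes that rose and 3 that fell of 7 tested, beside 25.9% and 36.9% of all genes. *Egr1* rose by 4.87 ± 0.23 and reached 2073–4261 (median 2524) CPM, *Egr2* rose by 6.18 ± 0.39, and *Nr4a1* rose by 3.23 ± 0.38 with a wide range of 221–999.9 (median 354) CPM. *Egr4* fell from 10.1–19.8 CPM in tissue to at most 0.312 in any sorted library, *Nr4a2* fell by 3.82 on the log2 scale, and *Nr4a3* fell by 2.39.

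Other early-response genes mostly rose. Of 12 Ier, Btg, and Klf genes 10 rose and 1 fell, beside 25.9% and 36.9% of all genes, with a median of 3.73. *Btg2*, an antiproliferative co-regulator, rose from 27.6, 22.2, 28.7, and 26.6 CPM to 1534–2812 (median 1850), a log2 change of 6.24 ± 0.20. *Klf2* and *Ier5* rose by 5.37 ± 0.21 and 4.38 ± 0.17. *Ier5l* fell by 4.43, from 9.77–14.7 to 0.128–1.09 (median 0.504) CPM.

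The 4 genes of mRNA-decay factors all rose, beside 25.9% of all genes, with a median of 4.80. These proteins bind and destabilize cytokine mRNAs. *Zfp36* (tristetraprolin, chromosome 7, 28376784 to 28379228, minus strand, mm10) was at 12.3, 15.5, 12.9, and 10.1 CPM in tissue and at 3053–4750 (median 3481) in sorted cells, a log2 fold change of 8.16 ± 0.16 (FDR = 6.68e-24). *Zfp36l2*, *Zfp36l1*, and *Zc3h12a* (regnase-1) rose by 4.93 ± 0.11, 4.66 ± 0.22, and 3.91 ± 0.18.

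Of 11 MAPK phosphatase and Sprouty genes, which feed back on kinase signaling, 6 rose and 5 fell, beside 25.9% and 36.9% of all genes. *Dusp1*, the phosphatase that ends p38 and JNK signaling, rose by 6.59 ± 0.15 and stood at 1702–2625 (median 1982) CPM against 22.5, 24.4, 18.6, and 19.6 in tissue, while *Dusp6* and *Spry1* rose by 3.92 ± 0.15 and 3.02 ± 0.20. *Spry4* and *Spry2* fell by 7.15 and 5.34, and *Dusp4* fell by 4.95. Of 10 genes of Jak-Stat feedback and the IL-6 receptor 9 rose. *Socs3*, the inhibitor induced by STAT3, was at 5.28, 4.59, 5.11, and 5.14 CPM in tissue and 379.5–812 (median 524) in sorted cells (6.68 ± 0.18). The receptor genes *Il6st* and *Il6ra* rose by 3.10 ± 0.19 and 3.53 ± 0.09, and *Cish*, an inhibitor tied to STAT5, fell by 2.80.

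Genes of the NF-kB pathway mostly rose. Of 13 tested 11 rose and none fell, beside 25.9% and 36.9% of all genes, with a median of 2.47. Among the subunits *Rel* rose by 5.45, *Nfkb1* by 2.69, *Nfkb2* by 2.47, and *Rela* by 1.91. Among the regulators *Nfkbiz* (IkB-zeta) went from 2.52, 3.54, 3.09, and 2.34 CPM to 249–793 (median 356), a log2 change of 7.10 ± 0.42. *Nfkbid* rose by 6.24 ± 0.41, and *Tnfaip3*, a ubiquitin-editing enzyme, rose by 5.80 ± 0.27. *Nfkbia* (IkB-alpha), which NF-kB induces to end its own signal, was at 45.6, 75, 51.2, and 45 CPM in tissue and at 478–996 (median 576) in sorted cells (3.54 ± 0.21). *Tnip1*, a partner of that enzyme, had overlapping groups and a log2 fold change of 0.17 ± 0.08.

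Cytokine and chemokine genes mostly rose, some from a few counts in a tissue library. *Tnf* (tumor necrosis factor) was at 0.123, 0.310, 0.196, and 0.223 CPM in the tissue libraries, which is at most 5 counts in a library, and at 57.6–170 (median 92.6) in the sorted libraries. Its log2 fold change was 8.74 ± 0.54 (FDR = 6.28e-14), the highest among genes that passed the rule for the steepest rises. *Il1b* (interleukin-1 beta) was at 0.369, 0.310, 0.295, and 0.558 CPM in tissue and at 51–184 (median 84.9) after sorting (7.82 ± 0.58). *Il1a* rose by 5.94 ± 0.32. Of 12 cytokine genes tested 11 rose and none fell, beside 25.9% and 36.9% of all genes, with a median of 3.58. *Tgfb1* and *Il16*, which microglia also express at rest, rose by 2.62 ± 0.09 and 2.43 ± 0.08, close to the homeostatic genes, and *Il18* stood at 0.31 ± 0.11.

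Among chemokines, *Ccl3* and *Ccl4*, both inflammatory chemokines, were at 1.66, 2.85, 3.83, and 1.67 CPM and 1.47, 1.61, 3.53, and 1.34 CPM in tissue. In sorted cells they were at 187–464 (median 246) and 136–395 (median 197), log2 fold changes of 6.75 ± 0.33 and 6.64 ± 0.34. *Ccl2*, which recruits CCR2 monocytes, rose by 6.92 ± 0.50 and *Ccl7* by 6.06. *Cxcl2*, a neutrophil attractant, was listed at 0 in every tissue library and at 3.70–27.8 (median 9.86) CPM in the sorted ones, for which no fold is given. *Ccl6* rose least among the chemokines that passed the test (1.59 ± 0.09). In all, 12 of 13 tested chemokine genes rose and none fell (median 4.22), beside 25.9% and 36.9% of all genes.

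To show what lies upstream of these genes, the 250 bases before the RefSeq start site (GRCm38.p6, the mm10 build) were searched for 9 named genes and are printed for the 4 of them that held a match: 2 genes of the early response, 1 NF-kB inhibitor, and 1 homeostatic gene. The windows of *Atf3*, *Il1b*, *Tnf*, *Ccl3*, and *Cx3cr1* held none of the motifs searched and are not printed. Capitals mark matches to the CArG box, the serum response element core, or to the kB site, the NF-kB consensus, on either strand.
Fos, chr12:85473640-85473889, plus strand: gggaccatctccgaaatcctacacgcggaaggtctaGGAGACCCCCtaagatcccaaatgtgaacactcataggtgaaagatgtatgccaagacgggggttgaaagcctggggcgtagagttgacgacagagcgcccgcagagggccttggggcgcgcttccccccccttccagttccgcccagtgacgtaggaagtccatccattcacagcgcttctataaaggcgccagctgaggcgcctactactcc
Zfp36, chr7:28379229-28379478, minus strand: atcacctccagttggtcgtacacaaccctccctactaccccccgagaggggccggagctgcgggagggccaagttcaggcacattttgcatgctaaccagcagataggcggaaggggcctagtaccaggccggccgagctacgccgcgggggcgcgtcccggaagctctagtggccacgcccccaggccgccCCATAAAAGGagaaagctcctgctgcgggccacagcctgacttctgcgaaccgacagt
Nfkbia, chr12:55492648-55492897, minus strand: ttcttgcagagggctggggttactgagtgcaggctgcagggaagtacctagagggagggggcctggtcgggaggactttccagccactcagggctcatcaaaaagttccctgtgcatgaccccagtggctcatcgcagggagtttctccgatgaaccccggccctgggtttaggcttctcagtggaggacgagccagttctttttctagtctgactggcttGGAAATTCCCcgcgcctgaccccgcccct
P2ry12, chr3:59262986-59263235, minus strand: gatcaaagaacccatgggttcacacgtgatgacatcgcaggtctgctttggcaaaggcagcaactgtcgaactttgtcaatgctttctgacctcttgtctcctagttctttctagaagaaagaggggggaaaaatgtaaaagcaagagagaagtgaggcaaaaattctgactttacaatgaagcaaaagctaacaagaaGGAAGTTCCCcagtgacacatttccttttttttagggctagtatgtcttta

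The match in *Zfp36* was a CArG box that began 58 bases before the start, and the matches in *Fos*, *Nfkbia*, and *P2ry12* were kB sites that began 214, 29, and 51 bases before it. Over windows that also took in the first bases of the transcript, 27 of 90 promoters of the activation lists (30%) held a kB site, beside 8.46% of all 32851 promoters and 6.9% of 29 promoters of homeostatic genes. The activation lists differed in this share. It was 66.7% for the NF-kB list (10 of 15 promoters), 50.0% for chemokines (4 of 8), 35.7% for cytokines (5 of 14), 33.3% for Egr and Nr4a factors (3 of 9), 30.8% for AP-1 and ATF factors (4 of 13), and 11.1% for the Ier, Btg, and Klf genes (1 of 9). None of the 9 promoters of the MAPK list, the 10 of the Jak-Stat list, and the 3 of the mRNA-decay list held one. A CArG box was found for 3 of the 74 activation genes with a promoter and 488 of 27025 genes in all, and *Egr2* alone gave 4 of the 6 activation promoters that held it. Among promoters, the AP-1 motif TGANTCA in 13.3% and 7.81%, the cAMP-response motif TGACGTCA in 5.56% and 1.79%, and the PU.1 motif GAGGAAGT in 3.33% and 3.2%. For each motif a promoter was counted once, with a match on either strand. These are letter matches, not sites shown to bind. RefSeq promoters were matched for 74 of the 96 activation genes and 22 of the 30 homeostatic genes.

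Since microglial genes as a group rose in Sort-TRAP, the same test was repeated with libraries scaled to the 30 homeostatic genes. This gives each change relative to the median of these genes. The 30 genes themselves spread from 0.624 to 4.28 around a median of 2.90 on the first scale. A relative change inside that spread is therefore not apart from every homeostatic gene. On the relative scale the median of all genes was -3.03, 126 of 14923 genes were called higher (0.844%) and 13066 lower (87.6%). Of the 3844 genes called higher on the first scale and tested on both, 126 stayed higher, 1728 were not called, and 1990 were called lower than the homeostatic genes. Early-response and cytokine genes were among those called higher. *Tnf* rose by 5.93 ± 0.58 (FDR = 4.80e-10), *Zfp36* by 5.26 ± 0.19 (FDR = 2.68e-19), *Il1b* by 4.98 ± 0.59, *Fos* by 4.55 ± 0.21, and *Atf3* by 4.35 ± 0.27. *Nfkbiz*, *Ccl2*, *Ccl3*, *Socs3*, *Ccl4*, *Dusp1*, and *Btg2* followed, with log2 values from 4.23 down to 3.36.

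The lists held calls in both directions on the relative scale, beside 0.844% of all genes higher and 87.6% lower. All 4 mRNA-decay genes were called higher. Of 12 Ier, Btg, and Klf genes 6 were called higher and 2 lower, of 12 cytokines 6 and 1, of 13 chemokines 6 and 4, and of 11 AP-1 and ATF genes 5 and 5. Of 13 NF-kB genes 4 were called higher and 4 lower, of 7 Egr and Nr4a genes 2 and 4, of 11 MAPK feedback genes 2 and 7, and of 10 Jak-Stat genes 1 and 4. *Jun* (2.90), *Junb* (2.65), *Egr1* (1.96), *Egr2* (3.30), and *Tnfaip3* (2.93) were among those called higher. *Nr4a1* (0.33 ± 0.33), *Nfkbia* (0.64 ± 0.20), *Il6st* (0.21 ± 0.15), and *Tgfb1* (-0.28 ± 0.09) rose on the first scale and were not called on the relative one. *Zc3h12a* (1.03 ± 0.20), *Dusp6* (1.04 ± 0.14), and *Sgk1* (1.05 ± 0.11) lay at the fold limit. *Zc3h12a* lost its call without the FACSAria-TRAP library of mouse 992 (0.97), the autoMACS-TRAP library of mouse 72 (0.997), or the tissue library of mouse 946 (0.91), 948 (0.94), or 949 (0.98), *Dusp6* without tissue mouse 949 (0.97), and *Sgk1* without FACSAria-TRAP mouse 992 (0.998). With libraries scaled to the study's microglial markers instead, whose members are then not tested, 3 of 9 AP-1 and ATF, 3 of 8 cytokine, 2 of 7 chemokine, and 0 of 7 NF-kB genes were called higher.

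**Figure D3:**
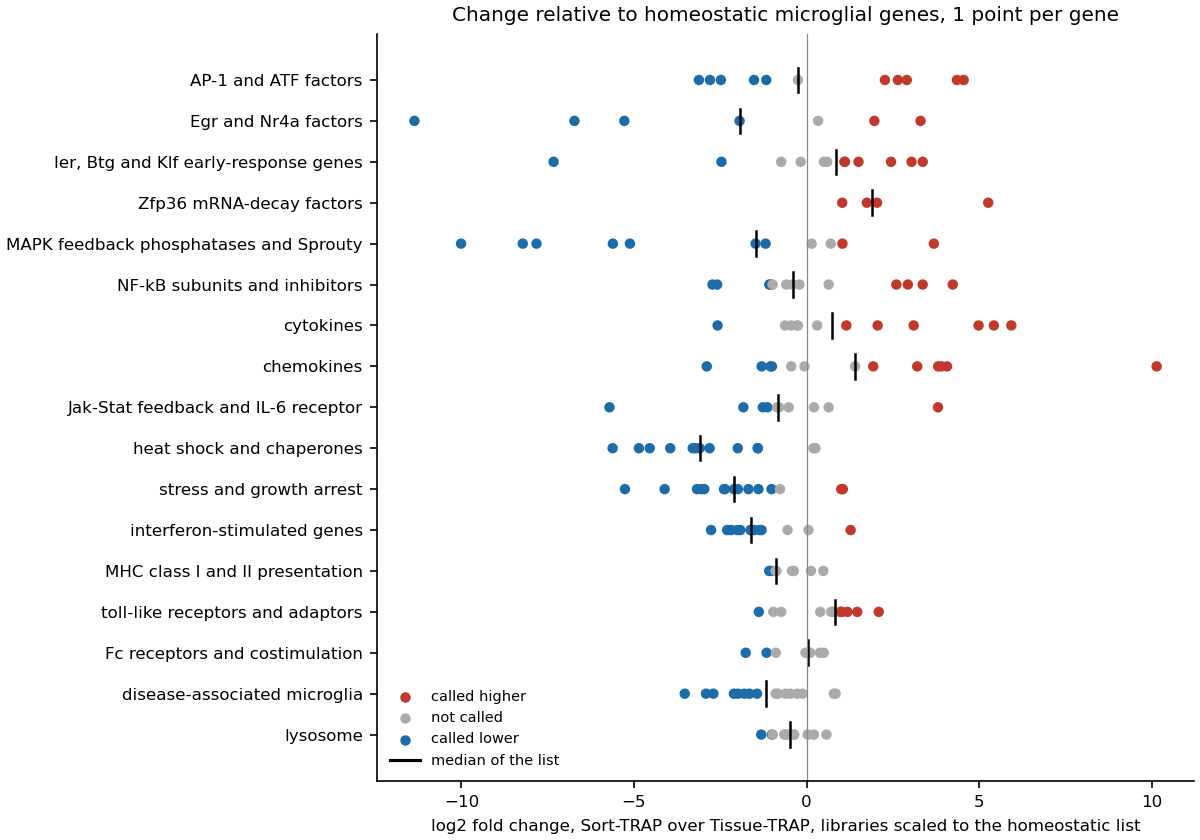
Log2 fold change of Sort-TRAP over Tissue-TRAP with libraries scaled to the homeostatic microglial genes (x axis), 1 point per tested gene and 1 row per list of the activation, stress, and immune groups. Red points were called higher, blue lower, and gray not called, and the black mark is the median of the list: the mRNA-decay list has a median of 1.89, and heat shock and chaperone genes lie low with a median of -3.09. Cxcl2 had no count in tissue, so its point depends on the prior count.

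Genes of pathogen sensing and antigen presentation rose. All 14 toll-like receptor genes and adaptors rose (median 3.70), beside 25.9% of all genes. *Tlr9*, the sensor of CpG DNA, rose most, from 6.02–9.77 to 129.9–347 (median 269.9) CPM (4.96 ± 0.15). *Cd14*, the coreceptor for lipopolysaccharide, rose by 3.89 ± 0.10 and *Tlr7*, a sensor of single-stranded RNA, by 3.59 ± 0.14, while *Ly96* (MD-2) rose least (1.50 ± 0.13). Relative to the homeostatic genes 5 of the 14 were called higher, among them *Tlr9* (2.09 ± 0.13) and *Cd14* (1.01 ± 0.10), and *Ly96* was called lower. *Cd14* was not called without the FACSAria-TRAP library of mouse 992 (0.97) or the tissue library of mouse 949 (0.94). Without the former the list held 3 genes called higher.

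All 10 tested genes of antigen presentation rose (median 2.02), beside 25.9% of all genes. So did all 9 Fc receptor and costimulation genes (median 2.92). *B2m* and *H2-D1*, of MHC class I, rose by 1.81 ± 0.07 and 2.00 ± 0.12, and *Tap1*, the peptide transporter, by 3.37 ± 0.12. *H2-D1* and *H2-K1* are near-identical in part, so reads between them may be split. *Cd86*, a ligand of CD28, rose by 3.39 ± 0.07, *Fcgr1* by 2.92 ± 0.08, and *Fcer1g*, the common gamma chain, by 1.13 ± 0.08. *Fcer1g* was under the fold limit with the size factors of DESeq2 (0.79).

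Interferon-stimulated genes rose in part. Of 13 tested 8 rose and none fell, beside 25.9% and 36.9% of all genes, with a median of 1.29. Relative to the homeostatic genes 10 of the 13 were called lower, beside 87.6% of all genes. *Irf1*, a transcription factor that NF-kB also induces, rose by 2.93 ± 0.21. *Mx1*, an antiviral GTPase, rose by 4.16 ± 0.50 from at most 0.683 CPM in tissue. Its call on the relative scale (1.27 ± 0.53) was lost without the tissue library of mouse 948 (0.75). *Bst2* rose by 1.27 ± 0.10 with TMM but stood at 0.93 with DESeq2 size factors. *Ifit3* and *Ifitm3* stood at 0.98 ± 0.26 and 0.15 ± 0.20, under the fold limit. *Ifit3* was called without the FACSAria (1.07) or Tyto (1.02) sort, without the tissue library of mouse 946 (1.04) or 947 (1.03), and without any 1 of 7 sorted libraries (1.00 to 1.04). These were the FACSAria-TRAP library of mouse 69, the Tyto-TRAP libraries of mice 823 and 945, and the autoMACS to Tyto-TRAP and autoMACS-TRAP libraries of mice 66 and 67.

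All 12 lysosomal genes rose (median 2.42), beside 25.9% of all genes. They ranged from *Npc2*, a cholesterol carrier (1.57 ± 0.05), to *Lamp2* (3.45 ± 0.09). *Lgmn*, an asparaginyl endopeptidase, was at 614–680.3 CPM in tissue and 4326–5272 (median 4927) in sorted cells. Of 16 genes of disease-associated microglia 11 rose and none fell (median 1.72), beside 25.9% and 36.9% of all genes. None was called higher than the homeostatic genes, beside 0.844% of all genes. *Itgax* was called higher on that scale without the tissue library of mouse 947 (1.00) and with limma (1.04). On the first scale *Itgax* (CD11c) rose by 3.73 ± 0.27, and the cathepsins *Ctsd* and *Ctsb* by 2.05 ± 0.08 and 2.41 ± 0.06. *Apoe*, which astrocytes also make, was at 1856–2635 CPM in tissue and 2596–5787 (median 3816) in sorted cells, a log2 value of 0.78 ± 0.16 under the fold limit. *Fth1*, ferritin heavy chain, stood at -0.01 ± 0.09. It has processed pseudogenes that can share its reads.

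Of 13 heat shock and chaperone genes tested 4 rose and 4 fell, beside 25.9% and 36.9% of all genes, with a median of -0.193. The inducible *Hspa1a* and *Hspa1b* rose by 3.11 ± 0.62 (FDR = 4.95e-05) and 3.17 ± 0.69 (FDR = 1.60e-04). They are near-identical copies whose reads cannot be fully separated. In the edgeR test within the 6 mice that gave 2 sorted libraries, both differed with the sort. The log2 difference of autoMACS to Tyto minus autoMACS was 0.84 for *Hspa1a* and 1.08 for *Hspa1b*. That of FACSAria minus Tyto was -0.74 and -0.92 (FDR = 1.73e-04 and 1.83e-04, both pairs jointly). Only *Hspa1b* passed the fold limit there. *Hspa1a* was at 24.8, 7.76, 9.03, and 8.60 CPM in the tissue libraries and at 21.4–312 (median 80.3) in the sorted ones, and the lowest sorted library lay below the tissue library of mouse 946. *Hspa5*, the chaperone of the endoplasmic reticulum, rose by 1.47 ± 0.11. The constitutive *Hspa8* and *Hsp90ab1* stood at 0.09 ± 0.09 and -0.19 ± 0.11, and the small heat shock gene *Hspb1* fell by 2.71.

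Among 15 genes of stress and growth arrest 6 rose and 2 fell, beside 25.9% and 36.9% of all genes, and 7 were not called. *Sgk1* and *Tsc22d3*, both targets of glucocorticoids, rose by 3.92 ± 0.12 and 2.14 ± 0.18, and *Ppp1r15a* (GADD34) rose by 3.89. *Fkbp5*, a further glucocorticoid target, was at 109–142 CPM in tissue and 91–384 (median 144) in sorted cells, and its log2 value of 0.79 ± 0.37 did not pass. *Gadd45a* fell by 2.36.

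Markers of other brain cells were lower in Sort-TRAP, most of all those of neurons. The summed level of 10 neuron markers was 6511–7305 CPM in Tissue-TRAP, 144–403 in Cell-TRAP, and 8.82–16.2 in Sort-TRAP, and all 10 fell (median -11), beside 36.9% of all genes tested. *Snap25*, a synaptic vesicle fusion protein, was at 1800, 1610, 1620, and 1660 CPM in tissue and at 0.0736–2.21 (median 0.337) in sorted cells, a log2 fold change of -11.80 ± 0.25. The highest sorted value came from the FACSAria-TRAP library of mouse 991. *Slc17a7*, the vesicular glutamate transporter, fell by 13.04 and *Faim2* by 12.67. *Gad1*, which makes GABA, fell by 7.23, the smallest fall of the 10, and remained at 1.82–4.28 (median 3.46) CPM.

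**Figure D4:**
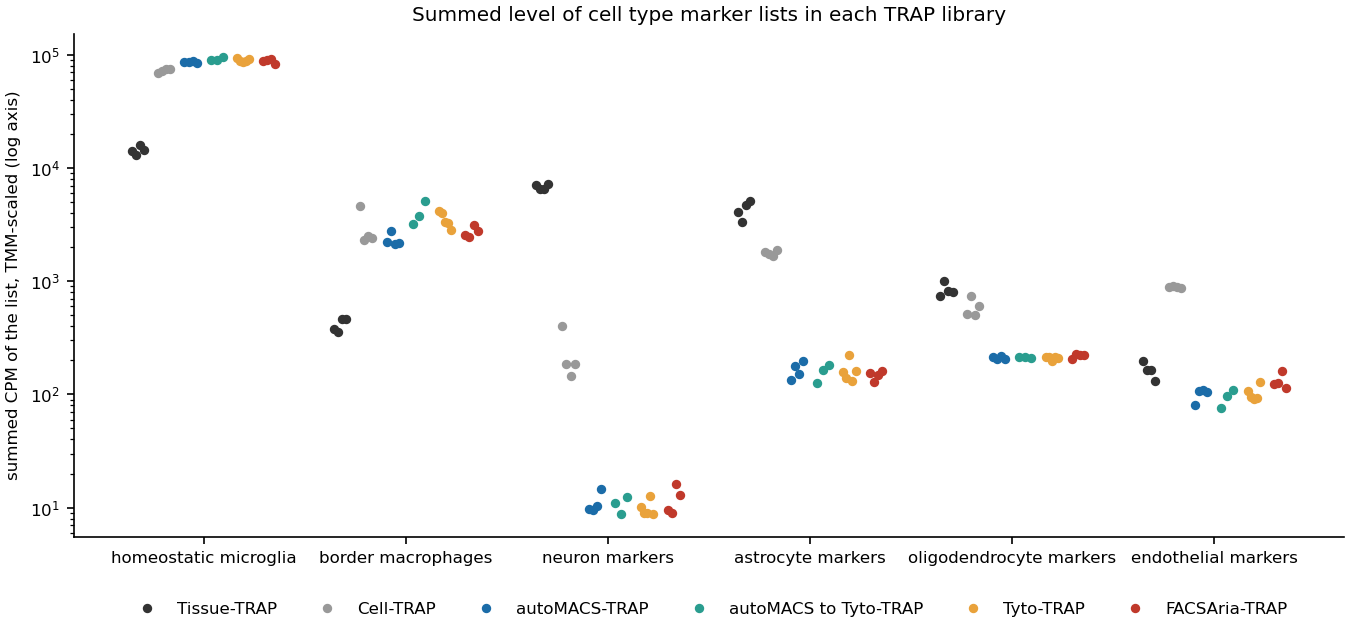
Summed CPM of marker lists in each TRAP library on a log axis, 1 point per library and 1 color per group. Neuron markers drop from between 6511 and 7305 CPM in Tissue-TRAP to between 8.82 and 16.2 in Sort-TRAP with Cell-TRAP between them, endothelial markers are highest in Cell-TRAP, and homeostatic microglial genes are highest in Sort-TRAP.

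The genes that fell furthest under the naming rule were *Ckmt1*, *Slc24a2*, *Sst*, *Slc17a7*, *St8sia3*, *Atcay*, *2900011O08Rik*, *Slc35f1*, *Vip*, *Faim2*, *Grin1*, and *Nrsn2*, several of them known from neurons. *Slc24a2* was at 313–517 CPM in tissue and at most 0.638 in a sorted library, and *Ckmt1*, a mitochondrial creatine kinase, at 195–246 and at most 0.130. *Vip*, a peptide of interneurons, was at 39.8–64.5 CPM in tissue and at 0 in every sorted library, at least 282.5-fold lower when 3 counts per library are taken as the floor. Fitted fold changes of genes at 0 in every sorted library depend on the prior count and are not given. The steep falls given above for *Slc17a7* and *Faim2* may also rest on few counts in sorted libraries, so their size is uncertain.

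Genes of neuronal function fell without exception in the lists tested, beside 36.9% of all genes. This held for 12 of 12 glutamate receptor genes, 11 of 11 genes of GABA receptors and synthesis, 14 of 14 voltage-gated channel genes, 15 of 15 neuropeptide genes, and 8 of 8 neuronal activity-regulated genes. In the neuropeptide list *Vip*, *Hcrt*, and *Trh* were at 0 in every sorted library, and 10 genes, these included, held at most 3 counts in any of them. With such genes set at the floor the median was -7.07 for neuropeptides and -9.97 for glutamate receptors. *Grin1*, the shared NMDA receptor subunit, was at 349–405 CPM in tissue and at most 0.455 in sorted cells, and *Gria2*, an AMPA receptor subunit, at 284–420 and 0–1.21 (median 0.216).

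Some members kept a level that the others did not. *Gabbr1*, a GABA-B receptor subunit, fell by 3.87 but stayed at 28.6–52.7 (median 33.7) CPM in sorted cells. *Rheb*, an activator of mTOR, fell by 1.14 to 36.3–60 (median 42.4) CPM.

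Astrocyte markers fell in 8 of 8 cases (median -8.52), beside 36.9% of all genes. Their summed level was 3326–5081 CPM in tissue and 127–225 in sorted cells. *Slc1a2*, the glutamate transporter GLT-1, went from 2310, 1860, 2650, and 3310 CPM to 0.684–12.7 (median 1.93), a log2 change of -10.00 ± 0.25, and *Aldoc* fell by 9.27. *Slc1a3* (GLAST) made up most of what remained: it stood at 121–211 (median 146) CPM in sorted cells against 275–393 in tissue (-1.21 ± 0.11).

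Of 8 oligodendrocyte markers 6 fell, beside 36.9% of all genes. *Mbp*, a myelin protein, went from 269, 401, 292, and 276 CPM to 36.5–67.9 (median 49), a log2 change of -2.63 ± 0.14. *Cnp* and *Mag* were not called: *Cnp* was at 85.1–104 CPM in tissue and 105–126 (median 119) in sorted cells (0.28 ± 0.05), and *Mag* stood at 0.34 ± 0.10. All 7 markers of oligodendrocyte progenitors fell, *Olig1* from 43.9–58.1 CPM to at most 0.543.

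For vascular markers Cell-TRAP stood above both other groups. The 8 endothelial markers summed to 132–199 CPM in Tissue-TRAP, 864–902 in Cell-TRAP, and 76–161 in Sort-TRAP. In Sort-TRAP 6 of them fell while 2 rose, beside 36.9% and 25.9% of all genes. *Cldn5*, a tight-junction protein, was at 57.1, 29.9, 43.7, and 32.3 CPM in tissue, 130, 123, 144, and 145 in the cell suspension, and 0.116–10.5 (median 1.40) in sorted cells (-4.52 ± 0.36). *Pecam1* and *Kdr* rose by 1.50 ± 0.11 and 1.68 ± 0.20. Of 6 pericyte and smooth muscle genes 5 fell, among them *Rgs5* (-5.60 ± 0.29), and all 7 ependymal and choroid plexus genes fell. *Ttr*, made by the choroid plexus, ranged over 1.14–54 (median 6.14) CPM in sorted cells.

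The longer published marker lists used in the study gave further counts for other cells. These stand beside 36.9% of all genes called lower and 25.9% called higher. Of 97 neuronal markers tested 96 fell and none rose, and their summed level went from 17720–19440 CPM in tissue to 64.7–120.1 in sorted cells. Of 138 astrocytic markers 127 fell and 4 rose (14940–18500 to 3678–7161 CPM), and of 191 oligodendrocytic markers 146 fell and 16 rose (11970–12930 to 3924–4322 CPM). Of 233 endothelial markers 139 fell and 55 rose, and the share that rose was close to that of all genes. Their summed level was nevertheless higher in sorted cells (8854–10520 CPM) than in tissue (4954–5379), and it was 14610–15230 in Cell-TRAP.

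Markers of border macrophages, which the Cre line also tags, mostly rose. Their summed level was 354.6–465.8 CPM in tissue, 2310–4619 in the cell suspension, and 2131–5157 in sorted cells. Of these markers 8 of 10 rose while none fell (median 1.97), beside 25.9% and 36.9% of all genes. *Mrc1*, the mannose receptor CD206, was at 48.4, 40, 51.1, and 54.3 CPM in tissue and 339.6–1112 (median 538) in sorted cells (3.58 ± 0.29). *Stab1* and *Siglec1* rose by 3.15 ± 0.13 and 3.82 ± 0.46, and *Pf4* (0.81 ± 0.22) did not pass the fold limit. Relative to the homeostatic genes 5 of the 10 were called lower and none higher, beside 87.6% and 0.844% of all genes. *Siglec1* was called higher on that scale without the autoMACS sort (1.24), with limma (1.09), with libraries summed per mouse (1.03), with sex as a term (1.005), and without the FACSAria-TRAP library of mouse 945 (1.02), the tissue library of mouse 948 (1.05), or the autoMACS to Tyto-TRAP (1.05) or autoMACS-TRAP (1.01) library of mouse 66. Blood cell genes summed to 21.8–42.01 CPM in tissue, 45.95–113.2 in Cell-TRAP, and 8.79–27.7 in sorted cells. Only 6 of the 21 listed could be tested, of which 1 rose and 3 fell. The neutrophil gene *Mpo* and the T cell gene *Cd3g* were at most at 3 counts in every sorted library. The hemoglobin genes *Hba-a1* and *Hba-a2*, near-identical copies, fell by 2.20 and 2.46, and *Ly6c2* fell by 4.43. *Ccr2*, the monocyte chemokine receptor, rose by 4.44 ± 0.26, from 0.248–0.491 CPM to 6.37–11.8 (median 9.55).

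The genes behind the tag, *Rpl10a* and *Rangap1*, whose fusion proteins the NuTRAP allele encodes, were not called. *Rpl10a* was at 207, 187, 204, and 196 CPM in tissue and 259.8–368 (median 309) in sorted cells (0.63 ± 0.06), and *Rangap1* stood at 0.89 ± 0.07. *Rangap1* was called higher (1.03) when the autoMACS sort was left out. Counts of the endogenous gene and of the transgene cannot be told apart here.

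Of 12 collagen and laminin genes 9 fell and 1 rose, beside 36.9% and 25.9% of all genes. *Col4a2*, a basement membrane collagen, fell by 3.49 and *Col6a1* by 4.46. *Lamb2* rose by 1.25 ± 0.11 with TMM and stood at 0.91 with DESeq2 size factors. In cholesterol metabolism *Abca1*, the efflux pump, rose by 4.46 ± 0.11, from 30.5–39.1 to 456–1071 (median 832) CPM, and *Abcg1* rose by 1.73 ± 0.10. Among the synthesis genes *Sqle* fell by 2.70 and *Fdft1* by 2.56. Of 12 genes of synthesis and efflux 6 fell and 2 rose, beside 36.9% and 25.9% of all genes, and 4 were not called.

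In glycolysis 10 of 17 genes fell and 2 rose, beside 36.9% and 25.9% of all genes. *Eno2*, the neuronal enolase, fell by 10.29, while *Eno1* (-0.72 ± 0.05) did not pass the fold limit. *Pfkp* and *Pfkm*, isoforms of phosphofructokinase, fell by 5.84 and 4.69, and *Pfkl*, the liver type, stood at -0.00 ± 0.07. *Hk2*, the inducible hexokinase, rose from 54–67.6 to 559.6–727 (median 626) CPM (3.40 ± 0.08), and *Pfkfb3*, which makes the activator of phosphofructokinase, rose by 2.34. Of 8 long noncoding RNAs 5 fell, beside 36.9% of all genes. *Malat1* fell by 1.86, with a range of 16.6–463 (median 44) CPM in sorted cells. *Rian* fell from 90.9–136 CPM to at most 0.715. *Neat1* was called higher (1.04 ± 0.46), but it was under the fold limit with the mouse as a block (0.84), DESeq2 size factors (0.69), limma (0.37), at least 10 counts in every library (0.61), and without the autoMACS (0.79) or the autoMACS to Tyto sort (0.98). The call was also lost without any of the FACSAria-TRAP library of mouse 992 (0.97), the Tyto-TRAP library of mouse 823 (0.98), the autoMACS to Tyto-TRAP library of mouse 66 (0.87), the autoMACS-TRAP library of mouse 73 (0.71), or the tissue library of mouse 946 (0.91).

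In the F test among the 4 sorts 624 of 14953 genes passed the FDR and the fold limit (4.17%). None of the homeostatic, AP-1 and ATF, cytokine, chemokine, or mRNA-decay genes was among them, and of the NF-kB list only *Rel* was. At the FDR alone 28.8% of all genes differed, among them 15 of 30 homeostatic, 3 of 13 chemokine, 2 of 11 AP-1 and ATF, and 2 of 12 cytokine genes. That test took libraries as independent, although 6 mice gave 2 sorted libraries each. With the mouse as a block 522 genes passed (3.49%), and within these 6 mice, where autoMACS to Tyto was set against autoMACS and FACSAria against Tyto, 255 did (1.71%). Neither blocked test passed a gene of the homeostatic, AP-1 and ATF, cytokine, chemokine, or mRNA-decay lists at both limits. At the FDR alone the test within mice took in 21.3% of all genes, 15 of 30 homeostatic, 6 of 13 chemokine, 5 of 11 AP-1 and ATF, and 3 of 12 cytokine genes. *Atf3* was lower in autoMACS to Tyto than in autoMACS in each of mice 66 (835 against 1030 CPM), 67 (881 against 1130), and 73 (799 against 969), with a within-mouse log2 difference of -0.31 (FDR = 0.0207 for both pairs of sorts jointly). *Fos* had group means of 4589 ± 954 CPM (SD, n = 4) in FACSAria-TRAP, 4144 ± 546 (n = 5) in Tyto-TRAP, 4277 ± 413 (n = 4) in autoMACS-TRAP, and 4279 ± 281 (n = 3) in autoMACS to Tyto-TRAP. The log2 fold changes of *Fos* over the shared tissue libraries were 7.55, 7.40, 7.45, and 7.45 in the same order. The median of the homeostatic list was 2.93, 2.88, 2.82, and 2.88, and that of the cytokine list 3.34, 3.67, 3.82, and 3.49.

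The genes that differed among the sorts included 5 of 8 endothelial, 4 of 10 border macrophage, and 2 of 8 astrocyte markers, beside 4.17% of all genes. With the mouse as a block 1 gene of each of these lists passed, which was *Tek*, *F13a1*, and *Slc1a2*, beside 3.49% of all genes, and within mice 6 endothelial genes, *Siglec1*, and no astrocyte gene passed, beside 1.71%. *Cldn5* thus did not pass with the mouse as a block and passed within mice. *Slc1a2* was at 1.02 ± 0.426 CPM in autoMACS-TRAP and 6.04 ± 4.04 in Tyto-TRAP (largest log2 difference 2.503, FDR = 9.40e-04). *Cldn5* was at 0.609 ± 0.467 CPM in autoMACS to Tyto-TRAP and 3.82 ± 4.56 in FACSAria-TRAP, where the library of mouse 991 held 10.5 CPM (2.77, FDR = 0.0689). *F13a1*, a transglutaminase of border macrophages, was at 153 ± 31.3 CPM in FACSAria-TRAP, 267 ± 73 in Tyto-TRAP, 193 ± 52.8 in autoMACS-TRAP, and 339 ± 157 in autoMACS to Tyto-TRAP (1.15, FDR = 0.0239).

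**Figure D5:**
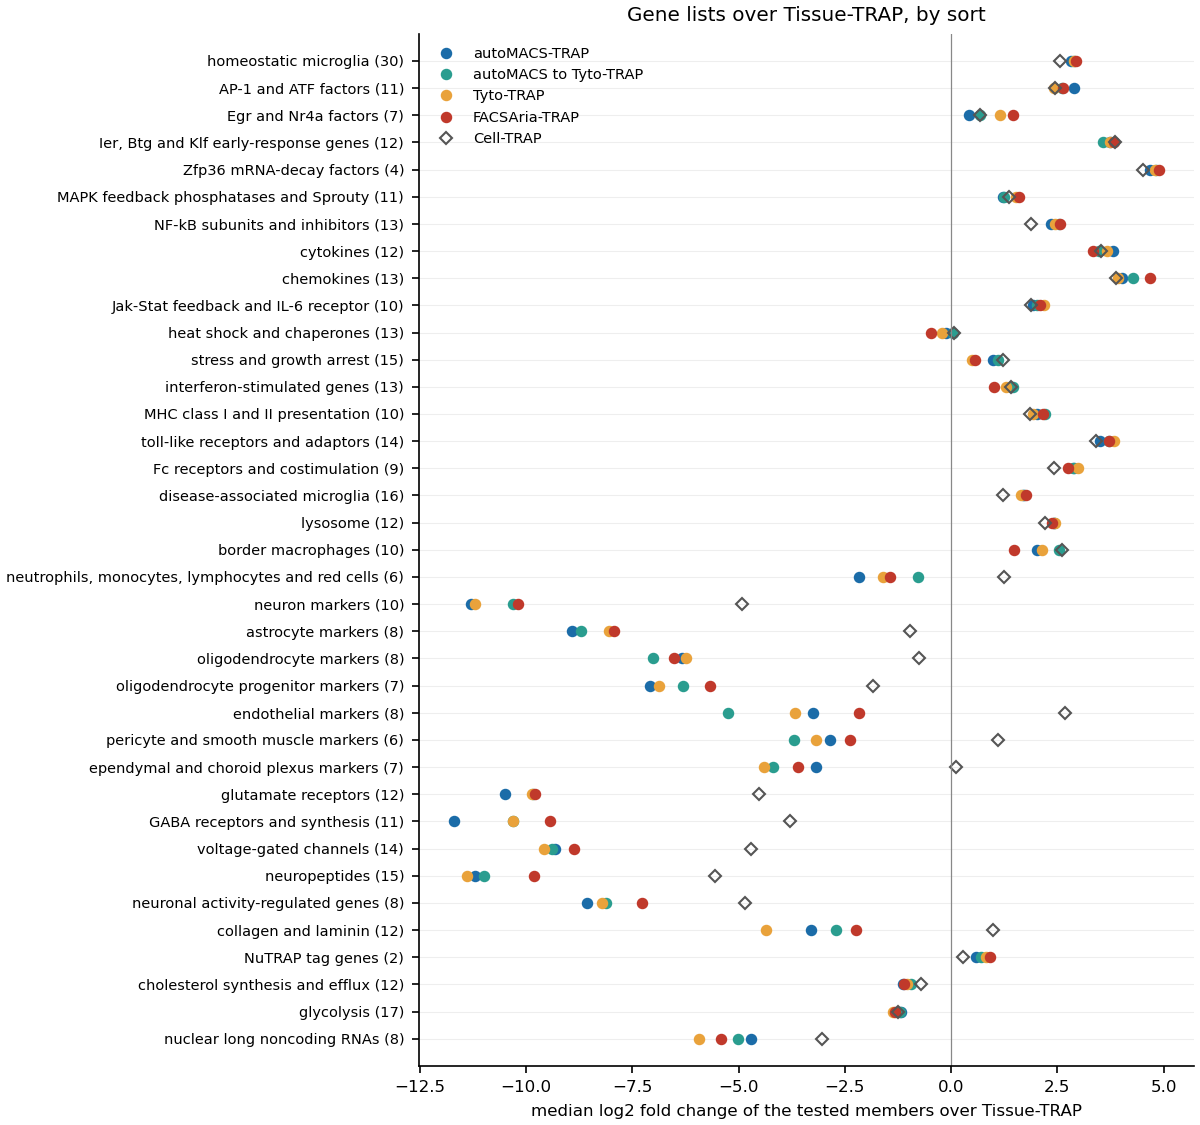
Median log2 fold change over Tissue-TRAP of the tested members of each list (x axis, number tested in parentheses), 1 colored point per sort and an open diamond for Cell-TRAP, all against the same 4 tissue libraries. The 4 sorts lie close together for homeostatic and activation lists, and Cell-TRAP lies above them for endothelial markers (2.68 against -5.24 to -2.16) and nearer to 0 for neuron markers (-4.92 against -11.3 to -10.2). Genes without counts in a sort take values set by the prior count.

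Cell-TRAP was made from the suspension before any sort, so Sort-TRAP against Cell-TRAP compares the changes from tissue with and without sorting. No mouse gave both Cell-TRAP and sorted libraries, so sorting and differences between mice cannot be told apart here. Of 14953 genes 125 were higher (0.836%) and 3526 lower (23.6%) in Sort-TRAP. Of the 5520 genes called lower against tissue 3399 were also called lower against Cell-TRAP, and of the 3873 genes called higher against tissue 89 were also called higher against Cell-TRAP and 15 lower. Of the activation lists, 1 of 13 NF-kB genes and 1 of 12 cytokine genes were called higher, and 1 of 11 AP-1 and ATF, 2 of 7 Egr and Nr4a, 1 of 12 Ier, Btg, and Klf, 3 of 11 MAPK feedback, and 1 of 10 Jak-Stat genes were called lower. None of 13 chemokine and 4 mRNA-decay genes was called. *Fos* was at 3420, 3840, 2970, and 2890 CPM in the 4 Cell-TRAP libraries (0.40 ± 0.12), *Zfp36* at 3260, 3000, 2570, and 2420 (0.36 ± 0.10), *Tnf* at 207, 72.6, 74.4, and 66 (-0.15 ± 0.24), and *Ccl3* at 312, 281, 244, and 239 (0.03 ± 0.19). Each of these lay under the fold limit and so was not called, although *Fos* and *Zfp36* stood higher in Sort-TRAP by more than their SE. The homeostatic list had a median of 0.260 in the same contrast, so much of this difference was shared with microglial genes in general. The Cell-TRAP library of mouse 946 was the highest for *Tnf* and *Ccl3*.

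*Il1b* was the exception among cytokines. It was at 69.5, 26.5, 17, and 27.9 CPM in Cell-TRAP and at 51–184 (median 84.9) in Sort-TRAP, 1.32 ± 0.31 on the log2 scale (FDR = 7.96e-04), and the Cell-TRAP library of mouse 946 lay within the sorted range. *Hspa1a* and *Hspa1b* were higher by 1.39 ± 0.53 (FDR = 0.0305) and 1.34 ± 0.60 (FDR = 0.0635), but their calls were lost without the Cell-TRAP library of mouse 948 (1.16 for *Hspa1a*, 1.09 for *Hspa1b*). The call of *Hspa1b* was also lost without the Cell-TRAP library of mouse 947 (1.28) or 949 (1.12) or the autoMACS to Tyto-TRAP library of mouse 66 (1.09). *Nr4a1* (0.93 ± 0.32) gained a call without the Cell-TRAP library of mouse 946 (1.25) or 947 (1.07). *Fkbp5* was lower in Sort-TRAP (-1.53 ± 0.32), with 443–893 CPM in Cell-TRAP.

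The genes that rose most over Cell-TRAP under the naming rule were *Adamts16* (1.81 ± 0.23), *Ugt1a7c* (1.58 ± 0.29), *Lpl*, a lipoprotein lipase (1.42 ± 0.29), *Fam129a* (1.39 ± 0.12), *Mthfd2*, an enzyme of mitochondrial folate metabolism (1.30 ± 0.16), and *Eya4* (1.16 ± 0.16). Each of the 6 was also higher than in tissue. *Ugt1a7c* shares exons with other *Ugt1a* genes, which makes its counts uncertain. Homeostatic microglial genes as a list showed a median of 0.260 over Cell-TRAP with none called.

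The genes that fell most were *Gpr37l1*, *Bcan*, *Ntsr2*, *Dio2*, *Gjb6*, and *Zfp366*. The first 5 are known from astrocytes. *Gpr37l1* was at 124–171 CPM in tissue, 124–161 in Cell-TRAP, and at most 0.956 in Sort-TRAP, and *Gjb6*, the gap junction protein connexin 30, at 40.6–47.8, 38.6–43.3, and at most 0.381. *Zfp366* was at 0.931–1.23 CPM in tissue, 18.4–24.3 in Cell-TRAP, and at most 0.260 in Sort-TRAP. Astrocyte and endothelial markers were lower in Sort-TRAP than in Cell-TRAP in 8 of 8 and 7 of 8 cases, beside 23.6% of all genes. *Hspb1*, at 39–58.9 CPM in Cell-TRAP and 0.766–6.03 (median 2.29) in Sort-TRAP, fell by 4.12, while the summed astrocyte markers were at 1669–1876 CPM and the endothelial markers at 864–902 CPM in Cell-TRAP. Their part in this change was not tested.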

How the data were processed

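RNA from TRAP pull-downs was made into stranded poly(A) libraries. The authors trimmed reads, aligned them directionally to mm10, removed duplicates and quantified genes in Strand NGS. The deposited raw columns are expected counts, which the authors did not normalize (35.26% of the TRAP values were whole, tolerance 1e-09). The deposited log2 values were made by the authors with DESeq2 size factors and baselined to the median of Tissue-Input. They served for 1 alternative only. The 23 gene symbols that a spreadsheet had turned into dates were restored from identifiers.

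Expected counts were rounded to whole numbers. All 24 TRAP libraries entered 1 fit of the edgeR 4.0.16 quasi-likelihood test (R 4.3.3) with TMM scaling and group as the only term. Genes with more than 5 counts in every library of at least 1 group were kept. The contrast was the mean of the 4 sorts minus Tissue-TRAP. A call needed a Benjamini-Hochberg adjusted p (FDR) under 0.1 and a fold change above 2. The SE of a log2 fold change was taken as its size over the root of its F statistic. A further fit scaled libraries by the median ratio over the 30 homeostatic genes, which were left out of its tests. Sort-TRAP was also compared with Cell-TRAP, and the 4 sorts with each other by an F test. Depth per library is given with the results. It limits genes of few counts, for which a floor of 3 counts per library was used.

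Members and lists were chosen with earlier results of these data known. Named genes were the 12 largest called changes in each direction on each main scale with non-overlapping libraries and a mean of at least 20 CPM, the 3 most abundant and the most and least changed members of each list (mean of at least 5 CPM), a set of marker and activation genes, the 6 study microglial markers lowest relative to the homeostatic genes, and the 6 largest changes each way against Cell-TRAP. Other list members that are named were chosen after their values were seen. The study's marker lists were published ones. The tests were tested on simulated data. Alternatives were DESeq2 1.42.0 (size factors and Wald test), limma 3.58.1 on the log2 values, other filters, the compared libraries alone, sex as a term, libraries summed per mouse, a mouse block (voom with limma, also for the 4 sorts, and a fixed mouse term in edgeR within mice that gave 2 sorted libraries), 1 sort or 1 library left out, and scaling to the study's microglial markers. Promoter sequences are from RefSeq (GRCm38.p6). Some list members are counted but not reported here by name.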

Additional observations from a re-analysis of the deposited data

Results flagged for a closer look

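Among 120 groups of 4 or 5 libraries checked, 15 held a library whose gap to the others passed Dixon's 95% limit, where chance gives about 1 in 20. The groups came from the same libraries and were not independent, so the count cannot be judged against that rate. The Cell-TRAP library of mouse 946 stood apart in *Tnf* (207 CPM, others 66.0–74.4), *Mrc1* (978, others 341–388), *Tmem119* (3040, others 3650–3680), the summed border macrophage markers (4619, others 2310–2509), and the summed neuron markers (403.1, others 144.1–185.8). The FACSAria-TRAP library of mouse 992 stood apart in *Ccl3* (464 CPM, others 207–222) and *Ccl4* (395, others 147–178). Tissue libraries stood apart for mouse 948 in *Ccl4* (3.53 CPM, others 1.34–1.61) and *Tmem119* (622, others 544–554), and for mouse 946 in *Hspa1a* (24.8, others 7.76–9.03).

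In autoMACS-TRAP, mouse 67 was apart in summed border macrophage markers (2804 CPM, others 2131–2202), mouse 66 in endothelial markers (80.16, others 105.1–109.2), and mouse 73 in homeostatic genes (85120, others 87260–87490) and neuron markers (14.48, others 9.557–10.32). In Tyto-TRAP, mouse 823 was apart in oligodendrocyte markers (198.2 CPM, others 211.2–216.3).

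Changes from tissue that differed between Sort-TRAP and Cell-TRAP by the test of the difference itself (edgeR, FDR) were those of *Il1b* (1.325, FDR = 0.000796), *Hspa1a* (1.394, FDR = 0.0305), *Mbp* (-1.728, FDR = 2.43e-10), *Cldn5* (-6.251, FDR = 4.91e-14), *Snap25* (-6.896, FDR = 3.17e-17), and *Slc1a2* (-8.162, FDR = 1.71e-19). Among the sorts, *Slc1a2* differed by up to 2.503 (FDR = 0.00094) and *Cldn5* by up to 2.772 (FDR = 0.0689).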

How the results depend on the processing

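No named gene that was called in the main fit or in an alternative changed direction between them. Other genes were not checked for this, and the median log2 change of all genes went from -0.139 to 0.00316 with at least 10 counts. With at least 10 counts in every library, which tests 10239 genes and drops genes absent from sorted cells, calls against tissue fell to 4761 (2371 higher, 2390 lower), relative calls to 8769 (8685 lower), calls against Cell-TRAP to 440 (21 higher, 419 lower), and calls among sorts to 173. With only the compared libraries in the fit 394 genes differed among sorts. A replicate block, also chosen after the data were seen, gave 522 genes among sorts with all libraries and 255 within the 6 mice that gave 2 sorted libraries (12 libraries). Leaving out 1 library gave 9388–9489 calls against tissue, 13122–13300 relative to homeostatic genes, and 3584–3682 against Cell-TRAP. The share of calls that were higher was 41.2%, but 32.4% with DESeq2 size factors, 29.9% with limma on the log2 values, and 49.8% with at least 10 counts. No paired analysis was possible because no mouse gave both sorted and tissue libraries. A replicate block for the mouse (consensus correlation 0.106) gave 9430 calls. Scaled to the study's microglial markers, fewer list genes were called higher relative to microglia: 3 of 9 AP-1 and ATF, 3 of 8 cytokine, 2 of 7 chemokine, and 0 of 7 NF-kB genes. Members of that marker list are not tested under it, so fewer genes enter. Depth leaves genes of a few counts per library without a reliable fold.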
